A study of Homo sapiens with 9 samples.

Results

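The 9 genes described here are direct targets of the transcription factor p53: CDKN1A, MDM2, TP53INP1, ZMAT3, FDXR, RRM2B, XPC, BTG2 and CCNG1. They were taken by name, with no threshold on their values but with earlier results of these data known, and each had a row among the 22587 genes measured. All 9 passed the filter on low values (a mean of at least 0.5 FPKM, the fragments counted per kilobase of a gene and corrected for sequencing depth), which 11880 genes passed in all.

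RNA was sequenced from HepG2, an established line of human liver tumour cells, in 9 libraries of 3 groups with 3 libraries each. The cells were grown in high-glucose DMEM with 10% fetal bovine serum, and the groups were cells with glutamine (Gln) added and cells kept in Gln-free DMEM for 12 h or for 24 h, starting 24 h after seeding. The treatment entries of the samples list GlutaMAX, a dipeptide that cells split to release Gln, for the cultures with Gln added, whereas the treatment protocol places it in the Gln-free medium. What the deprived cells received is therefore not settled by the sources used here, and the groups are named as the samples are titled.

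p53 is held low in unstressed cells by MDM2, a ubiquitin ligase that marks it for destruction, and by the related protein MDM4. When DNA is damaged or nucleotides run short, p53 escapes this control and raises the transcription of its targets, which stop the cell cycle, repair DNA, adjust metabolism or start cell death. MDM2 is itself a target, so the pathway contains a negative feedback loop. Several targets also answer to other stress factors, among them ATF4 and CHOP, which are induced when amino acids are lacking.

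The sequence before the start of transcription is shown for the genes whose levels moved apart, with RefSeq windows on GRCh38.p14 that run from 250 bases before to 50 bases after a start. Windows were found for 7 of the 9 genes, 13 windows in all, 4 of them for MDM2, and none for TP53INP1 and RRM2B. They are CDKN1A (chr6:36678464-36678763, plus strand), the outer and the inner start of MDM2 (chr12:68807922-68808221 and chr12:68808767-68809066, plus strand) and FDXR (chr17:74872945-74873244, minus strand), each printed 5′ to 3′ along the gene. Capitals mark every match, on either strand, to the 7 motifs searched: the p53 decamer, the sites of AP-1 (TGANTCA), of CREB, also called CRE (TGACGTCA), and of the stress factor ATF4 with a CEBP partner (TGATGNAAT), the core promoter element known as TATA box (TATAAA), and the common elements CCAAT (bound by NF-Y) and GGGCGG (bound by SP1). Overlapping matches are joined.
CDKN1A: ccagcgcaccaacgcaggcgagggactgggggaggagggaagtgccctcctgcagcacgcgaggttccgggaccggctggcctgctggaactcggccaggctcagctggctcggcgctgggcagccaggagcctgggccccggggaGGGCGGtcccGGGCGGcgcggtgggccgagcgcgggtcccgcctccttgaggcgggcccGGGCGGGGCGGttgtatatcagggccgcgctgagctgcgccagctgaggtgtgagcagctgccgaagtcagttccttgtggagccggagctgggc
MDM2 outer start: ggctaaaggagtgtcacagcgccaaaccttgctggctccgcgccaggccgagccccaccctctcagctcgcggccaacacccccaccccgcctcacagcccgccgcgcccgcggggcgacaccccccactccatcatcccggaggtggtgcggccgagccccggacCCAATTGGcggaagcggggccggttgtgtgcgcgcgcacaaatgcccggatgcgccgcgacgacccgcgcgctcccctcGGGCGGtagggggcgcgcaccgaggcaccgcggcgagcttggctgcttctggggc
MDM2 inner start: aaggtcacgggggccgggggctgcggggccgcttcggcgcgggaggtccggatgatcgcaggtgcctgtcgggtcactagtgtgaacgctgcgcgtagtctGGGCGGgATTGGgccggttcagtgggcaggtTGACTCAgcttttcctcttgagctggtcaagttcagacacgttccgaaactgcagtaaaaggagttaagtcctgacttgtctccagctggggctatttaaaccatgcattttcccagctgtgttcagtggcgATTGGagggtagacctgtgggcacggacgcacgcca
FDXR: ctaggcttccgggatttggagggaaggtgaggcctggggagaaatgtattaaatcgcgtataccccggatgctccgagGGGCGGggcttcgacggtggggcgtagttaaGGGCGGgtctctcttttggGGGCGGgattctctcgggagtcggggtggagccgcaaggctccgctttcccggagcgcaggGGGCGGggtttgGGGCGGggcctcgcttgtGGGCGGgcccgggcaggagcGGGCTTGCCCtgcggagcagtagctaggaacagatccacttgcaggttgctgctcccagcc

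Of the 7 genes with a window, FDXR had a match to the p53 decamer, at position -11 from the start. This motif was held by 6.63% of all 35116 promoters searched. It reads RRRCWWGYYY (R is A or G, W is A or T, Y is C or T). A full p53 site holds 2 such decamers, so this match alone is not a full site. TGANTCA was found at MDM2, at position -118 in the inner window, and in 7.71% of all promoters. The CRE, ATF4 and TATA motifs were in no window of the 7 genes, against 1.85%, 0.991% and 11.5% of all promoters. GGGCGG was found at all 7 genes and CCAAT at 5 of them, and they are common, with 45% and 34.6% of promoters. A gene was counted when any of its windows matched, whereas the shares are of single windows, so the 2 are not directly comparable. These matches describe letters in short windows: the p53 elements known for CDKN1A lie farther upstream, and a motif that was not matched says nothing about the factor. Only exact matches to the p53 decamer were marked. A p53 site that departs from it by any base would stay in lower case, in the MDM2 windows as well. The lack of a marked decamer there does not mean that MDM2 has no p53 site.

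The 9 genes were well measured. The libraries held 29621270 to 36261546 fragments on genes, and the genes themselves between 739 fragments (BTG2) and 18205 fragments (MDM2) in a library. Since FPKM are values per length, levels of different genes can be ranked, as far as the gene lengths behind them hold. The label HepG2 was checked with markers. All 8 liver genes on the marker list were present, with summed levels of 7494 to 7594 FPKM with Gln added, 6557 to 6624 FPKM at 12 h and 6336 to 6666 FPKM at 24 h. Of 10 markers of blood, stromal, endothelial, squamous and muscle cells, 2 (PTPRC and KRT5) had no row and 6 were below 1 FPKM in every library. LYZ (524 to 785 FPKM) and CD68 (21.2 to 36.3 FPKM) were not low, and the summed level of the list was 768 to 788 FPKM with Gln added, 553 to 593 FPKM at 12 h and 759 to 806 FPKM at 24 h. The part of this shift in the results was not tested. In RNA from whole cultures, less RNA per cell and fewer cells with a high level cannot be told apart. The samples are not stated to come from separate cultures, so the p-values measure the spread between these libraries, which may be technical.

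At 24 h, replicate 1 stood apart from the other libraries of its group. A chi-square of fragments per gene, divided by its degrees of freedom, was 14.4 and 9.62 between replicate 1 and the others, against 5.16 between replicates 2 and 3. At 12 h, replicate 3 also stood apart, with 7.83 and 8.33 against 3.38 between replicates 1 and 2. The same measure was 2.88 to 4.41 with Gln added. No pair of replicates was within sampling noise. Results at 24 h are given with and without 24 h replicate 1 where it changed a call or moved a value by over 1.5 times. Leaving out 12 h replicate 3 changed a call only for ZMAT3, from 12 h to 24 h.

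The 9 p53 targets did not move together under Gln deprivation. TP53INP1 rose at both times and CDKN1A rose at 24 h, whereas FDXR, BTG2, CCNG1, RRM2B and MDM2 fell at both times and ZMAT3 fell at 12 h. XPC did not pass the test at either time. At 12 h, 7 of the 9 genes were called (adjusted p under 0.05 with limma on log2(FPKM + 0.1), Benjamini-Hochberg over all 11880 genes), 1 higher and 6 lower. Of all genes tested 60.2% were called at 12 h, 29.1% higher and 31% lower, so the number of calls was not unusual, while 66.7% of the 9 genes were lower. At 24 h, 7 of 9 were called against 64.7% of all genes, with 2 higher and 5 lower against 33% higher and 31.7% lower of all genes.

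Across the 9 genes the log2 fold changes had medians of -0.32 (12 h) and -0.18 (24 h), against -0.02 and 0.01 over all genes tested. From 12 h to 24 h, 3 of the 9 genes changed against 20.1% of all genes. CDKN1A and TP53INP1 were the 2 higher ones (9.57% of all genes were higher) and FDXR the 1 lower (10.5% of all genes were lower). Both deprived groups were compared with the same 3 libraries with Gln added, so the 12 h and 24 h fold changes are not independent of each other. As no group with Gln added was given for each time, time without Gln cannot be told apart from time in culture.

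CDKN1A encodes p21, the inhibitor of cyclin-dependent kinases that stops the cell cycle after p53 is activated. It lies at chr6:36676460-36687337 on the plus strand (GRCh38, GENCODE 44). It measured 33.9, 36.1 and 34.4 FPKM in the 3 libraries with Gln added, 33.6, 33.3 and 32.2 FPKM at 12 h and 45.3, 42.0 and 42.9 FPKM at 24 h. The 12 h libraries lay just under those with Gln added, and all 24 h libraries lay above both other groups. The mean was 34.8 ± 1.16 FPKM (SD, n = 3) with Gln added and 43.4 ± 1.71 FPKM (SD, n = 3) at 24 h, a gain of 24.7%. The log2 fold change was 0.32 at 24 h (SE 0.041, limma adjusted p = 5.4e-05) and -0.07 at 12 h (adjusted p = 0.149). The rise came between the times, with a log2 difference of 0.39 from 12 h to 24 h (adjusted p = 0.000125). An antisense gene, DINOL, covers 4.87% of the CDKN1A exons on the opposite strand. The libraries' kit differs between the labels and the methods, so it is not settled whether reads of such pairs were told apart by strand.

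MDM2, the ubiquitin ligase of p53 and the feedback arm of the pathway, lies at chr12:68808177-68845544 on the plus strand. Its levels were 39.9, 36.7 and 38.1 FPKM with Gln added, 31.5, 30.3 and 34.3 FPKM at 12 h and 31.2, 35.3 and 34.8 FPKM at 24 h. Every deprived library lay below every library with Gln added, and the 12 h and 24 h libraries overlapped. MDM2 thus moved the opposite way to CDKN1A at 24 h, although both are textbook p53 targets. The log2 fold change was -0.26 at 12 h (SE 0.060, limma adjusted p = 0.00365) and -0.18 at 24 h (SE 0.060, adjusted p = 0.0216).

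The MDM2 call at 24 h was lost under 4 of the alternatives tried. Over all alternatives, the log2 fold change of MDM2 at 24 h ranged from -0.305 to -0.125. Without 24 h replicate 1 it was -0.13 on the log2 scale (limma adjusted p = 0.0748). The others were FPKM rescaled to the same total (-0.13, adjusted p = 0.0886) and leaving out Gln added replicate 1 (-0.15, adjusted p = 0.0836) or replicate 3 (adjusted p = 0.0505). The 12 h call held in every alternative tried. The exons of MDM2 overlap other genes over 11.1% of their bases on the opposite strand and over 5.29% on the same strand, and the gene length behind the FPKM was 12793 bases against 8306 exonic bases in GENCODE, so its level is less certain than those of genes without overlap.

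MDM4, the relative of MDM2 that blocks p53 activity, moved the opposite way to MDM2. It measured 2.37, 2.26 and 2.53 FPKM with Gln added, 3.12, 2.90 and 3.04 FPKM at 12 h and 2.73, 2.87 and 2.79 FPKM at 24 h. All deprived libraries lay above those with Gln added. MDM4 rose by a log2 fold change of 0.33 at 12 h (limma adjusted p = 0.00152) and 0.22 at 24 h (adjusted p = 0.0131). The 24 h call was lost without Gln added replicate 2 (0.19, adjusted p = 0.0514) and with a gene length trend removed, where the value was 0.11 (adjusted p = 0.16). The ratio of MDM2 to MDM4 within a library went from 15.1 to 16.8 with Gln added down to 10.1 to 11.3 at 12 h and 11.4 to 12.5 at 24 h. The groups did not overlap, and each deprived group against Gln added gave a two-sided exact permutation p = 0.1, the smallest that 3 against 3 libraries can give.

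CCNG1 encodes cyclin G1, which directs the phosphatase PP2A to MDM2, and lies at chr5:163437569-163446151 on the plus strand. It was the most abundant of the 9 genes, with 102, 93.1 and 95.5 FPKM with Gln added, 70.0, 73.7 and 81.2 FPKM at 12 h and 68.8, 85.7 and 86.5 FPKM at 24 h. Each deprived library lay below the range with Gln added, and the 24 h libraries were far apart (SD 10.0 FPKM, n = 3). CCNG1 fell by 0.37 on the log2 scale at 12 h (SE 0.085, limma adjusted p = 0.00338) and by 0.28 at 24 h (adjusted p = 0.0154). At 24 h the value was -0.17 without 24 h replicate 1 (adjusted p = 0.0333), and the difference from 12 h to 24 h was then 0.20 (adjusted p = 0.04) instead of 0.09 (adjusted p = 0.482). Without Gln added replicate 1 it was -0.24 and missed the threshold (adjusted p = 0.0589).

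TP53INP1 encodes a stress protein that promotes p53 phosphorylation and takes part in autophagy, and it lies on chromosome 8. It was the least abundant of the 9 genes with Gln added, at 6.74, 6.59 and 6.77 FPKM. At 12 h it measured 8.24, 7.99 and 9.08 FPKM, and at 24 h 10.2, 11.4 and 11.4 FPKM. The 3 groups did not overlap and were ordered by time without Gln. The gain was 25.9% at 12 h (log2 fold change 0.33, SE 0.062, limma adjusted p = 0.00104) and 64.0% at 24 h (0.70, SE 0.062, adjusted p = 2.95e-06). The further rise from 12 h to 24 h was 0.38 on the log2 scale (adjusted p = 0.0021). Among the 9 genes it alone was higher in both deprived groups.

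BTG2, an antiproliferative protein that binds the CCR4-NOT complex and speeds the removal of poly(A) tails, lies at chr1:203305491-203309602 on the plus strand. It measured 14.5, 14.9 and 14.7 FPKM with Gln added, 9.14, 9.43 and 10.3 FPKM at 12 h and 9.78, 9.50 and 9.50 FPKM at 24 h. Both deprived groups lay well below the libraries with Gln added and overlapped each other. BTG2 fell by 0.60 on the log2 scale at 12 h (SE 0.049, limma adjusted p = 2.29e-06) and by 0.61 at 24 h (SE 0.049, adjusted p = 1.52e-06), with a difference between the times of -0.00 (95% interval -0.11 to 0.11).

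ZMAT3, a zinc-finger protein that binds RNA and alters splicing, lies at chr3:178960121-179072215 on the minus strand. It measured 11.1, 11.0 and 11.2 FPKM with Gln added, 7.68, 7.81 and 9.76 FPKM at 12 h and 9.06, 10.9 and 10.8 FPKM at 24 h. All deprived libraries lay below those with Gln added, but at 24 h replicates 2 and 3 came close to them. ZMAT3 fell by 0.40 on the log2 scale at 12 h (SE 0.094, limma adjusted p = 0.00365). At 24 h the log2 fold change was -0.12 (adjusted p = 0.304), and -0.03 without 24 h replicate 1 (adjusted p = 0.788). The difference of 0.29 from 12 h to 24 h missed the threshold (adjusted p = 0.056). It passed without 24 h replicate 1 (0.37, adjusted p = 0.0162) and without 12 h replicate 3 (0.40, adjusted p = 0.00716).

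FDXR, ferredoxin reductase, passes electrons from NADPH to the ferredoxins of mitochondria for iron-sulfur cluster and steroid synthesis. It lies at chr17:74862497-74873031 on the minus strand. It measured 74.6, 75.1 and 74.0 FPKM with Gln added, 44.6, 45.6 and 44.3 FPKM at 12 h and 42.3, 35.9 and 36.9 FPKM at 24 h. The 3 groups did not overlap, and FDXR had the largest fall of the 9 genes at both times. It was down by 39.9% at 12 h (log2 fold change -0.73, SE 0.054, limma adjusted p = 1.06e-06) and by 48.5% at 24 h (-0.96, SE 0.054, adjusted p = 9.16e-08). The step from 12 h to 24 h was -0.23 on the log2 scale (adjusted p = 0.0145). It missed the threshold without 12 h replicate 2 (adjusted p = 0.0521) or without 24 h replicate 3 (adjusted p = 0.0572). Its electron acceptor FDX1 did not pass the test, with a mean of 10.2 FPKM with Gln added, 9.57 FPKM at 12 h (adjusted p = 0.144) and 9.50 FPKM at 24 h (adjusted p = 0.111).

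RRM2B, on chromosome 8, encodes p53R2, the small subunit of ribonucleotide reductase that supplies deoxynucleotides outside S phase. It measured 15.1, 14.6 and 15.2 FPKM with Gln added, 10.8, 12.0 and 13.2 FPKM at 12 h and 11.6, 13.2 and 13.0 FPKM at 24 h. The deprived libraries lay below those with Gln added at both times and overlapped each other. RRM2B fell by 0.32 on the log2 scale at 12 h (SE 0.073, limma adjusted p = 0.0029) and by 0.25 at 24 h (adjusted p = 0.0111).

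The partners of RRM2B fell further. RRM1, the large subunit, went from 37.5 FPKM with Gln added to 16.2 FPKM at 12 h and 12.9 FPKM at 24 h (log2 fold changes -1.20 and -1.53, limma adjusted p = 2.82e-08 and 3.06e-09). RRM2, the small subunit of dividing cells, went from 89.9 to 63.0 and 44.5 FPKM (-0.51 and -1.01, limma adjusted p = 4.15e-07 and 1.87e-09). The ratio of RRM2B to RRM2 within a library was 0.166 to 0.168 with Gln added, 0.168 to 0.208 at 12 h and 0.258 to 0.302 at 24 h. Both deprived groups lay above Gln added without overlap (two-sided exact permutation p = 0.1 each, the smallest possible), although the lowest 12 h library barely did. This ratio and those of MDM2 to MDM4, CDKN1A to MDM2 and BTG2 to BTG1 were chosen after the values were seen.

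XPC, which recognises DNA lesions at the start of nucleotide excision repair, lies at chr3:14145147-14178621 on the minus strand. It measured 8.55, 8.64 and 9.13 FPKM with Gln added, 7.81, 8.37 and 8.08 FPKM at 12 h and 8.57, 8.56 and 8.36 FPKM at 24 h. The 12 h libraries lay just below those with Gln added, and the 24 h libraries overlapped with them. The log2 fold change was -0.12 at 12 h (95% interval -0.22 to -0.01, limma adjusted p = 0.0511) and -0.04 at 24 h (95% interval -0.15 to 0.06, adjusted p = 0.416). XPC is the member with the largest overlap on the opposite strand, over 24.6% of its exonic bases. Its partner CETN2, a centrin that stabilises XPC, fell from 29.4 FPKM to 14.4 FPKM at 12 h and 12.3 FPKM at 24 h (log2 fold changes -1.02 and -1.25, limma adjusted p = 2.78e-07 and 4.09e-08).

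**Figure D1:**
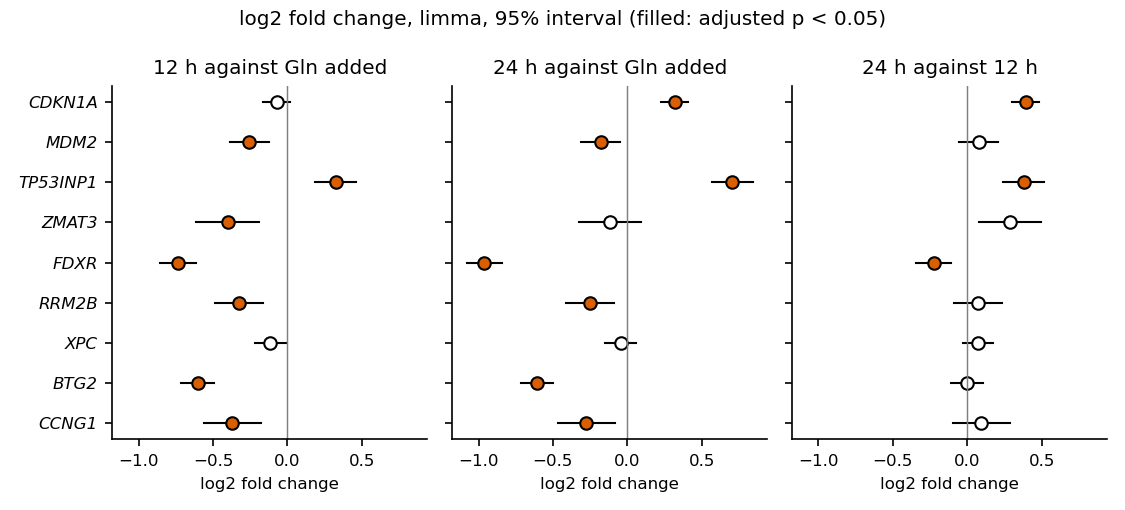
Log2 fold change (x axis) of each of the 9 genes (y axis) in the 3 comparisons, with points for limma estimates, bars for 95% intervals and filled points for an adjusted p under 0.05. FDXR (-0.73 and -0.96) and BTG2 (-0.60 and -0.61) lie farthest to the left in the comparisons with Gln added, TP53INP1 (0.33 and 0.70) farthest to the right, and in 24 h against 12 h CDKN1A, TP53INP1 and FDXR are filled.

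Without overlap between groups were 9 of the 9 genes at 12 h and 8 of 9 at 24 h, XPC being the exception, against 67.2% and 69.9% of all genes tested. From 12 h to 24 h only CDKN1A, TP53INP1 and FDXR of the 9 genes had no overlap, against 34.4% of all genes. Over all genes, the median size of a called log2 change was 0.39 at 12 h and 0.41 at 24 h, which FDXR and BTG2 exceeded at both times, ZMAT3 at 12 h and TP53INP1 at 24 h.

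**Figure D2:**
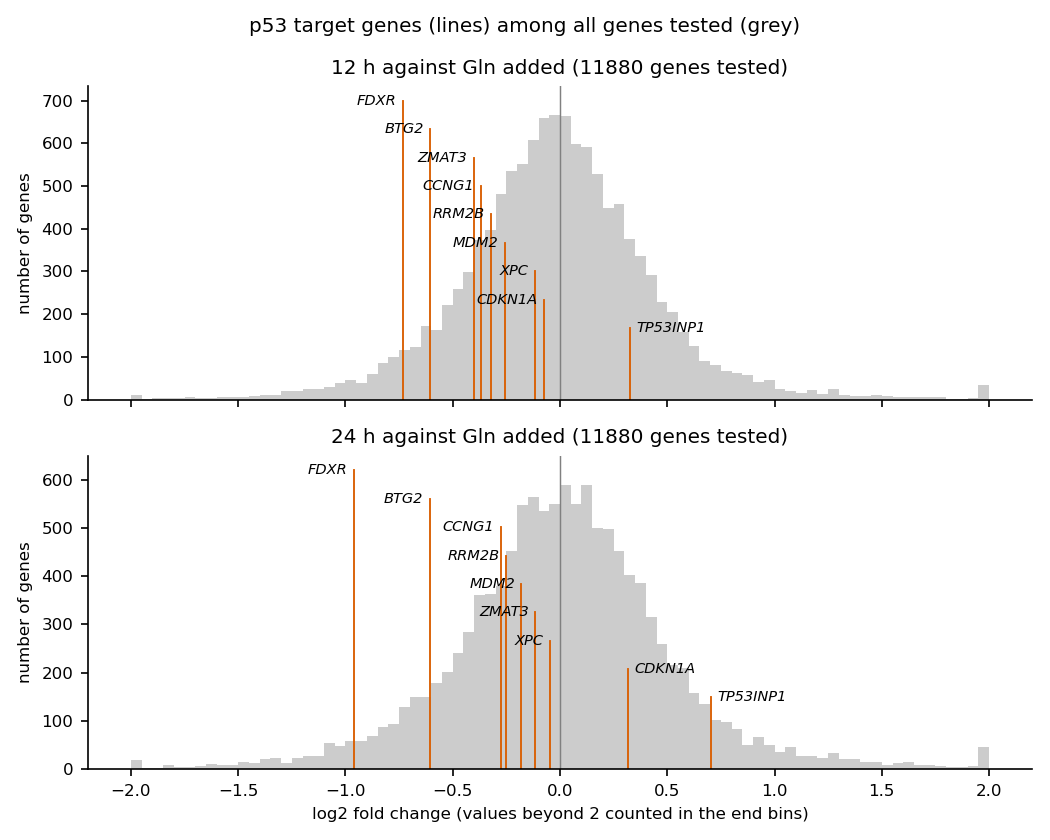
Number of genes (y axis) by log2 fold change (x axis, in steps of 0.05, with values beyond 2 in either direction counted in the end bins) for the 11880 genes tested, at 12 h above and at 24 h below, with labelled lines for the 9 genes whose heights carry no value. At 12 h, 8 of the 9 lines lie left of 0 and TP53INP1 (0.33) right of it, and at 24 h CDKN1A (0.32) and TP53INP1 (0.70) lie right of 0.

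With Gln added, the level order of the 9 genes was CCNG1 (96.8 FPKM), FDXR (74.6), MDM2 (38.2), CDKN1A (34.8), RRM2B (15.0), BTG2 (14.7), ZMAT3 (11.1), XPC (8.77) and TP53INP1 (6.70 FPKM). Neighbours in this order did not overlap between libraries except RRM2B and BTG2. The order is that of the deposited FPKM, whose gene lengths differ from the exonic bases of GENCODE for several of the genes. FDXR had 2321 against 3599 bases and CCNG1 2468 against 3096. Only MDM2 was rescaled here. The place of MDM2 beside CDKN1A depends on its gene length: scaled to the 8306 bases of GENCODE, MDM2 would be above CDKN1A in all 9 libraries. The change in their ratio between groups does not depend on that length. As deposited, the ratio of CDKN1A to MDM2 within a library was 0.850 to 0.982 with Gln added, 0.939 to 1.10 at 12 h and 1.19 to 1.45 at 24 h. The 24 h libraries lay above both other groups (two-sided exact permutation p = 0.1, the smallest possible), while the 12 h libraries overlapped with Gln added (exact permutation p = 0.2).

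The ratio of BTG2 to its paralog BTG1, which binds the same deadenylases, also turned over. It was 3.14 to 3.50 with Gln added, 0.866 to 0.930 at 12 h and 0.760 to 0.938 at 24 h (two-sided exact permutation p = 0.1 for each deprived group, the smallest possible). BTG1 itself rose from 4.45 FPKM to 10.8 FPKM at 12 h and 11.5 FPKM at 24 h (log2 fold changes 1.26 and 1.34, limma adjusted p = 1.15e-07 and 4.55e-08), and its level was above that of BTG2 in all 6 deprived libraries and below it in the 3 with Gln added.

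Replicates differed in a shared way for part of the genes. In MDM2, TP53INP1, ZMAT3, RRM2B and CCNG1, 12 h replicate 3 was the highest of its group and 24 h replicate 1 the lowest of its group, a pattern seen in 5 of the 9 genes and in 21.5% of all genes tested. It was more frequent among longer genes. Its share rose from 11.7% in the shortest of 4 equal length classes through 15.7% and 24.9% to 33.6% in the longest. MDM2 and ZMAT3 were in the longest class, TP53INP1 and RRM2B in the class with 24.9% and CCNG1 in the class with 15.7%. The part of this pattern in the results for these 5 genes was not tested beyond leaving out each library.

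Other p53 targets also moved in both directions, with falls in the majority. Of a list of 42 further targets 41 were tested (TRIM22 was too low, at most 0.506 FPKM). At 12 h, 8 were higher (19.5% against 29.1% of all genes) and 24 lower (58.5% against 31%). At 24 h, 11 were higher (26.8% against 33%) and 24 lower (58.5% against 31.7%). The 41 had median log2 fold changes of -0.34 (12 h) and -0.20 (24 h). From 12 h to 24 h, 5 rose (12.2% against 9.57% of all genes) and 4 fell (9.76% against 10.5%), near the background.

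The largest falls in this list were CMBL, POLH and PIDD1 at both times. CMBL, a hydrolase, went from 19.1 FPKM with Gln added to 9.21 and 7.89 FPKM (log2 fold changes -1.04 and -1.27, limma adjusted p = 2.91e-07 and 4.43e-08). POLH, the polymerase that copies past ultraviolet lesions, went from 4.58 to 2.69 and 2.42 FPKM (-0.75 and -0.90, limma adjusted p = 1.42e-05 and 2.39e-06). PIDD1, a death-domain protein, went from 5.72 to 3.21 and 3.09 FPKM (-0.82 and -0.87, limma adjusted p = 3.01e-06 and 1.28e-06). Some well-known targets fell by smaller amounts, among them the lesion sensor DDB2 (-0.71 and -0.64), the death receptor FAS (-0.70 and -0.70), SESN1 (-0.69 and -0.54) and the apoptosis effector BAX (-0.39 and -0.42). A minority of the list rose, among them PLK2 (0.36 and 0.76) and, at 24 h, TIGAR (0.39).

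Large rises in the list included PLK3 and IER5 at both times. PLK3, a stress-responsive kinase, went from 5.00 to 9.03 and 12.3 FPKM (0.84 and 1.29, limma adjusted p = 2.4e-06 and 6.7e-08). Like CDKN1A and TP53INP1, it was higher at 24 h than at 12 h (0.44, limma adjusted p = 0.00159). IER5, an immediate early gene, went from 1.96 to 3.38 and 3.67 FPKM (0.75 and 0.87, limma adjusted p = 2.12e-05 and 5.55e-06).

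All 6 targets on a list of those that ATF4 or CHOP can also drive rose at both times (SESN2, GDF15, TNFRSF10B, PMAIP1, BBC3 and GADD45A). The background was 29.1% higher at 12 h and 33% at 24 h. This list and the others were chosen with earlier results of these data known, so such counts are descriptions only. The 6 targets had median log2 fold changes of 0.90 (12 h) and 0.92 (24 h). GDF15, a secreted stress cytokine, measured 131 to 135 FPKM with Gln added, 436 to 473 FPKM at 12 h and 446 to 502 FPKM at 24 h (1.79 and 1.80, limma adjusted p = 8.57e-10 and 6.1e-10). BBC3, which encodes the BH3-only protein PUMA, went from 5.55 to 10.5 and 10.7 FPKM (0.91 and 0.93, limma adjusted p = 3.08e-06 and 1.83e-06). SESN2, a brake on mTORC1, rose by 1.59 and 1.65 on the log2 scale (limma adjusted p = 4.32e-09 and 2.15e-09). GADD45A, a growth arrest gene, had the smallest rise of the 6, with 0.33 and 0.43.

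**Figure D3:**
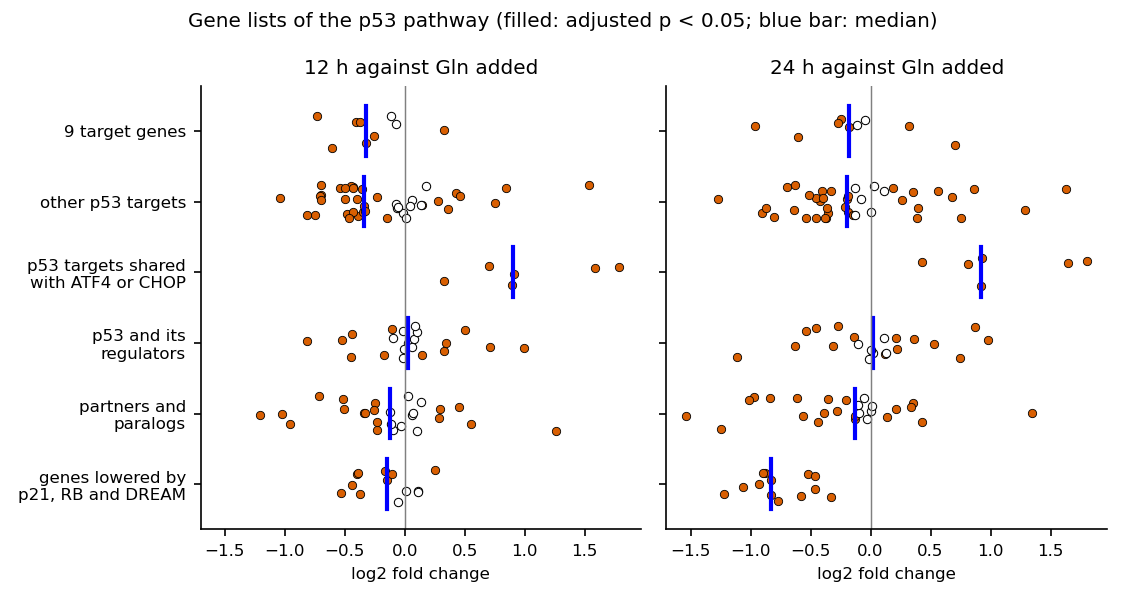
Log2 fold change (x axis) of each tested gene in 6 gene lists of the p53 pathway (y axis) at 12 h and 24 h against Gln added, with filled points for an adjusted p under 0.05, vertical jitter without meaning and a blue bar for the list's median. The 6 targets shared with ATF4 or CHOP all lie right of 0 (medians 0.90 and 0.92), the other 41 targets spread to both sides with medians of -0.34 and -0.20, and the genes lowered by p21, RB and DREAM move from a median of -0.15 at 12 h to -0.83 at 24 h.

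Regulators of p53 gave no common direction. Of 21 tested regulators (TP63 had no row), 6 were higher and 6 lower at 12 h, and 8 higher and 7 lower at 24 h, that is 28.6% in each direction and then 38.1% and 33.3%, near the background. The acetyltransferase gene CREBBP rose from 7.75 FPKM to 15.6 and 15.4 FPKM (log2 fold changes 1.00 and 0.98, limma adjusted p = 7.46e-08 and 5e-08). The related EP300 rose by 0.50 and 0.53, and SIRT1, a deacetylase of p53, by 0.71 and 0.87. The checkpoint kinase genes CHEK2 (-0.81 and -1.11) and CHEK1 (-0.45 and -0.53) fell, as did the p53 relative TP73 (-0.53 and -0.63), which was below 1 FPKM throughout. CDKN2A, which encodes the MDM2 inhibitor ARF beside p16, was called at 24 h only, at 1.01 FPKM against 0.560 FPKM (0.75, limma adjusted p = 0.00195).

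Partners and paralogs of the 9 genes fell more often than they rose. Of 26 tested (CDKN1C was at most 0.0295 FPKM), 5 were higher and 12 lower at 12 h, and 6 higher and 14 lower at 24 h. That is 46.2% lower at 12 h against 31% of all genes and 53.8% lower at 24 h against 31.7%, with 19.2% and 23.1% higher against 29.1% and 33%. PCNA, the sliding clamp that p21 binds, measured 312 to 317 FPKM with Gln added, 159 to 164 FPKM at 12 h and 160 to 161 FPKM at 24 h (log2 fold changes -0.96 and -0.97, limma adjusted p = 1.37e-09 and 9.01e-10). CCND1, whose cyclin D1 forms kinase complexes with p21, fell by 0.24 and 0.44 on the log2 scale (limma adjusted p = 4.42e-05 and 3.81e-07). The BTG family members TOB1 (0.45 and 0.43) and TOB2 (0.55 and 0.35) rose, unlike BTG2. BTG3, of the same family, was not called at either time (-0.12 and -0.06, limma adjusted p = 0.212 and 0.544).

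Genes that p21 is known to lower through RB and the DREAM complex fell mainly at the later time. Of 13 genes, 8 were lower and 1 higher at 12 h, and 13 lower at 24 h, against 31% and 31.7% lower of all genes. From 12 h to 24 h, when CDKN1A rose, 12 of the 13 fell, against 10.5% of all genes. Which gene acts on which was not tested here. CDC20, an activator of the anaphase-promoting complex, measured 108 to 111 FPKM with Gln added, 74.7 to 84.9 FPKM at 12 h and 44.6 to 51.2 FPKM at 24 h (log2 fold changes -0.44 and -1.22, limma adjusted p = 9.98e-05 and 3.35e-08). CCNA2, cyclin A2, fell by 0.40 at 12 h and 1.07 at 24 h, and MYBL2, a subunit of the activating form of the complex, fell by 0.39 and 0.93. E2F1 fell by 0.53 and 0.58. CCNB2, cyclin B2, was the exception at 12 h, higher by 0.25 (limma adjusted p = 0.000393), and was lower by 24 h (-0.33, limma adjusted p = 4.58e-05).

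Genes whose levels followed CDKN1A and MDM2 closely were found by Pearson's r of log2(FPKM + 0.1) over the 9 libraries among the 10867 genes that averaged 1 FPKM or more. The libraries share the 3 groups, so this describes a common shape only. For CDKN1A they included PLLP (r = 0.988) and CHPF (0.982), and 98 genes exceeded 0.9. For MDM2 they included NUS1 (0.990) and ERO1A (0.986), with 280 genes above 0.9. PLLP, for example, measured 60.3 FPKM with Gln added, 58.5 FPKM at 12 h and 77.2 FPKM at 24 h, and NUS1 39.7, 29.3 and 31.6 FPKM.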

How the data were processed

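RNA-seq of 9 HepG2 libraries was used, 3 per group, with groups taken from the sample titles. The authors aligned reads to GRCh38 with STAR and tested with DESeq2, per the methods, and the submitters' processing notes name HTSeq and R 3.2.0. The deposited values are FPKM per gene and library, made by the authors. The annotation used for counting is not given in the sources used here. The labels name a VAHTS Universal kit and the methods a NEBNext kit.

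Genes that averaged 0.5 FPKM or more were tested on log2(FPKM + 0.1) with limma 3.58.1 (lmFit, eBayes with a trend) in R 4.3.3, all groups in 1 fit, Benjamini-Hochberg over 11880 genes. Fold changes on this scale understate those of genes near 0.1 FPKM. Fragments behind each FPKM were recovered from its steps, whole within 0.02 for 100% of values, and they sum to 99.91% to 99.92% of the solved library totals. The test and the recovery were tested on simulated data. Single values were compared by exact permutation (scipy 1.17.1). Alternatives were pseudocounts of 1 and 0.01, no filter or at least 1 FPKM, rescaled FPKM, median-ratio scaling, only the groups compared, a replicate block, each library left out, voom on the fragments and, added after seeing the data, removal of a gene length trend. Limma was refitted for each.

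The members and the gene lists were chosen with earlier results of these data known. Named outside the members are MDM4 and, per list and time, the 3 highest and 3 lowest log2 fold changes with an adjusted p under 0.05, plus the 3 genes most correlated with CDKN1A and with MDM2. DDB2, FAS, SESN1, BAX, PLK2, TIGAR, GADD45A, CCND1, FDX1 and BTG3 were added after their values were seen. A few genes meeting this rule are not reported here. Positions come from GENCODE 44, promoters from RefSeq. Figures were drawn with matplotlib 3.10.9.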

Additional observations from a re-analysis of the deposited data

Results flagged for a closer look

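In 3 of the 9 genes the level differed between 12 h and 24 h without Gln by limma's test of the difference itself (24 h minus 12 h on the log2 scale). For CDKN1A the difference was 0.39 (adjusted p = 0.000125), with all 3 libraries at 24 h above all 3 at 12 h. For TP53INP1 it was 0.38 (adjusted p = 0.0021), again with all 24 h libraries higher. For FDXR it was -0.23 (adjusted p = 0.0145), with all 24 h libraries lower. Of all genes tested 20.1% were called in this comparison.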

How the results depend on the processing

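The 27 fold changes of the 9 genes (3 comparisons each) were recomputed under 19 alternatives, 513 values in all. No called value reversed, 497 kept their side of the threshold, 7 lost it and 9 gained it. The number of genes called, 7 at 12 h, 7 at 24 h and 3 between the times, was 7 to 8, 5 to 8 and 2 to 5 when 1 library was left out or another setting used. Leaving out libraries alone gave 7 to 8, 5 to 7 and 2 to 5. Without 24 h replicate 1 it was 5 between the times, where ZMAT3 (0.37) and CCNG1 (0.20, adjusted p = 0.04) passed, and without Gln added replicate 1 it was 5 at 24 h, where MDM2 and CCNG1 no longer passed. FPKM rescaled to the same total also ended the call of MDM2 at 24 h (-0.13, limma adjusted p = 0.0886). XPC at 12 h passed without 12 h replicate 2 (-0.14, limma adjusted p = 0.0417) and with the length trend removed (-0.12, adjusted p = 0.0471). With that trend removed, ZMAT3 passed at 24 h (-0.22, adjusted p = 0.0367) and between the times (0.26, adjusted p = 0.0462), and MDM4 at 24 h did not (0.11, adjusted p = 0.16). Voom called ZMAT3 between the times (0.28, adjusted p = 0.0215). The cause of these changes was not tested. Scaling moved the median of all genes by less than 0.1 on the log2 scale.

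Replicate numbers are shared between groups, and the correlations did not settle whether they pair the libraries. Deviations of same-numbered libraries correlated at 0.006 to 0.069 (Gln added and 12 h), 0.011 to 0.023 (Gln added and 24 h) and -0.16 to 0.304 (12 h and 24 h). Those of unlike numbers correlated at -0.071 to 0.014, -0.038 to 0.014 and -0.508 to 0.358, in the same order. With the replicate number as a block, 7, 7 and 4 genes were called, the added one being ZMAT3 between the times (0.29, limma adjusted p = 0.032).

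With 3 libraries a group, the exact permutation test cannot go below 0.1, so calls rest on the spread that limma shares between genes. Counting error was 0.780% to 3.68% of a level and the spread between replicates (coefficient of variation) 0.679% to 13.9%.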
